A study of Homo sapiens with 4 samples.

Results

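The 47 genes described here encode the regulators of the G1/S transition and the machinery that copies DNA in S phase. They were chosen by gene name and function, by a rule that holds no measured value, though earlier results of these data were known when they were proposed. All 47 were found among the 61806 genes of the count table. Transcript levels were measured by RNA-seq of total RNA from U251-MG, an established human glioma line grown in DMEM with serum. In the NC group the cells were infected with a lentiviral pCDH-CMV-MCS-EF1-puro negative control vector, and in the COL8A1 group with the same vector carrying the cDNA of COL8A1, a collagen VIII chain. Each group has 2 libraries, and the genotype label is WT in all 4. The insert is expressed from the vector's promoter in 1 cell line, and the labels do not say whether the cells were a pool or a clone, nor do they tie the libraries to separate cultures. A p-value here therefore sets the difference between the groups against the spread between libraries, which may be technical. Where 4 values are listed, the order is NC replicate 1, NC replicate 2, COL8A1 replicate 1, COL8A1 replicate 2.

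COL8A1 itself had 77, 82, 4290 and 2259 counts, in the direction of the labels. As CPM (counts scaled to a common library size) this was 2.47 ± 0.055 without and 108 ± 37.9 with the insert (SD, n = 2), with an edgeR adjusted p of 0.0681 and a DESeq2 adjusted p of 6.25e-72. Total counts per library ran from 27923796 to 33576228. Of 10 glioma and astroglial markers, VIM was between 2597 and 3145 CPM, NES, SOX2 and CD44 between 392 and 691, GFAP at or under 2.05, OLIG2 had 0 counts and CHI3L1 at most 3. The 8 of these that could be tested all had a higher mean in COL8A1 libraries. Their median deviation from the mean of the 4 libraries, on the log2 scale, was −0.16, −0.13, 0.18 and 0.046, with both COL8A1 libraries above both NC libraries, while their summed CPM, mostly VIM, overlapped at 4125, 4696, 5018 and 4435. At an unadjusted edgeR p under 0.05 stood 3 of the 8, where 6.07% of all genes tested did. SLC1A3, a glutamate transporter of astroglia, was at 27.3, 27.2, 52.8 and 59.2 CPM (edgeR adjusted p = 0.165, DESeq2 adjusted p = 2.52e-10). GFAP was at 0.685, 0.564, 2.05 and 1.84 CPM, from only 21, 19, 65 and 51 counts, and SOX9 at 162, 154, 191 and 184 CPM. Of 15 markers of other cell types, 9 were too low to be tested. PTPRC had at most 6 counts and CD3E and MOG had 0. The 6 others summed to 359.9, 446, 393 and 491 CPM, with KRT8 between 263 and 399 CPM, CDH5 between 60.1 and 78.3 and SYT1 between 21.3 and 28.7, and the part of both lists in the values below was not tested.

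Entry into S phase is driven by cyclin E with CDK2, which releases E2F transcription factors from the RB protein. E2F factors then switch on the genes of origin licensing, of the replication fork and of nucleotide synthesis. At origins the ORC complex, CDC6 and CDT1 load the MCM2-7 helicase, which CDC45 and the GINS complex activate. Gliomas commonly carry lesions that weaken the RB checkpoint, and the replication genes are widely read as markers of how many cells of a culture are dividing.

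Many, though not all, of the promoters of these genes hold E2F-type letters. The list was chosen by gene name and function, not by these letters. E2F factors switch on many such genes, so the share below is not independent of that choice. RefSeq promoter windows (GRCh38.p14), which run from 250 bases before to 50 bases after a start, were found for 39 of the 47 members. No window was used for CCNE2, CDK2, E2F8, GINS4, MCM4, MCM5, POLD3 and RPA2. The E2F-type letters TTTCCCGC, TTTGGCGC or TTTCGCGC, searched on both strands, occurred in the window of 21 of these 39 members (53.8%), against 2.74% of all 35116 windows, 3.30% of the 27305 genes that have one and 5.59% of the 11357 tested genes with a window. Each kind of letters was found in members, TTTCCCGC in 10, TTTGGCGC in 9 and TTTCGCGC in 6. The matches lay in all 4 MCM2-7 genes that have a window (MCM2, MCM3, MCM6, MCM7) and in 4 of 6 polymerase and primase genes. They were also frequent in the list of other replication genes, at 13 of 32 (40.6%), while 3 of 24 G2 and mitosis genes held them. The CHR letters TTTGAA or TTCGAA, which are a hallmark of mitotic promoters, showed the reverse, with 2 of 39 members, 20 of 24 G2 and mitosis genes and 15.9% of tested genes. A CCAAT box was found in 23 of 39 members, against 43.5% of tested genes. A match in letters is a description of the window, not a measured binding site.

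Upstream stretches of 5 members are shown because they hold the E2F-type letters in 4 of the role groups, outside annotated exons. Capitals mark the matches, forward or reverse, and each is written 5′ to 3′ on the strand of the gene (GRCh38.p14). E2F2 lies at chr1:23531238-23531305, minus strand, CDC25A at chr3:48188424-48188491, minus strand, MCM6 at chr2:135876492-135876625, minus strand, PCNA at chr20:5126644-5126711, minus strand and POLA1 at chrX:24693751-24693818, plus strand.
E2F2: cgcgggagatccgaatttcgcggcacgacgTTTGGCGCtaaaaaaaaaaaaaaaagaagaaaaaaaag
CDC25A: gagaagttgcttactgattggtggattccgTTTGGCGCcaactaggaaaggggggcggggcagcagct
MCM6: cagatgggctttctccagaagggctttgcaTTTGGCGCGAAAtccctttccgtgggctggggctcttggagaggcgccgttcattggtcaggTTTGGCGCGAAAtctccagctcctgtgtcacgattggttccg
PCNA: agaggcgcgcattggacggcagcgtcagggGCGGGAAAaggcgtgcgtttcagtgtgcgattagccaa
POLA1: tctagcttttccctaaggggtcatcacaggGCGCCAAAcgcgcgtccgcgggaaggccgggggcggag
In MCM6, capitals run over 4 matches because TTTGGCGC and the reverse of TTTCGCGC overlap in each of the 2 blocks. ATTGG, the reverse of CCAAT, also occurs in the CDC25A, PCNA and MCM6 stretches, in MCM6 both beside its second block and near its end. In MCM2, not printed here, the matches begin at bases 3 and 7 after the start.

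Across the replication genes, most fold changes between the COL8A1 and control vectors were small, as they were over the whole table. The median absolute log2 fold change was 0.097 over the members and 0.107 over all tested genes of at least 5 CPM. Of the 47 members, 0 passed the edgeR threshold (adjusted p under 0.05, quasi-likelihood test over 17030 genes), where 0.0117% of all genes tested did. COL8A1 itself also missed this threshold, so missing it does not show that a gene was unchanged, and the intervals below give the range of differences that the data allow. DESeq2 also called 0 members, against 1.06% of all genes. At an unadjusted edgeR p under 0.05 stood 2 of the 47, where 6.07% of all genes did: 1 member, MCM2, was higher (3.44% of all genes) and 1, RPA2, was lower (2.63% of all genes). In bulk RNA, fewer S-phase cells and less transcript per cell cannot be told apart. The adjusted edgeR p-values of the members ran from 0.653 to 0.998. By sign alone, 28 members had a higher and 19 a lower mean in COL8A1 cells, where 50.2% of all genes were higher, and the median log2 fold change was 0.046 against 0.0011 over all genes. In 40 of the 47 the log2 fold change was within 0.2 of zero. The 95% interval of the edgeR log2 fold change stayed within 1.5-fold in both directions for 41 members and within 2-fold for 45, the exceptions at 2-fold being CCNE2 and GINS1.

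**Figure D1:**
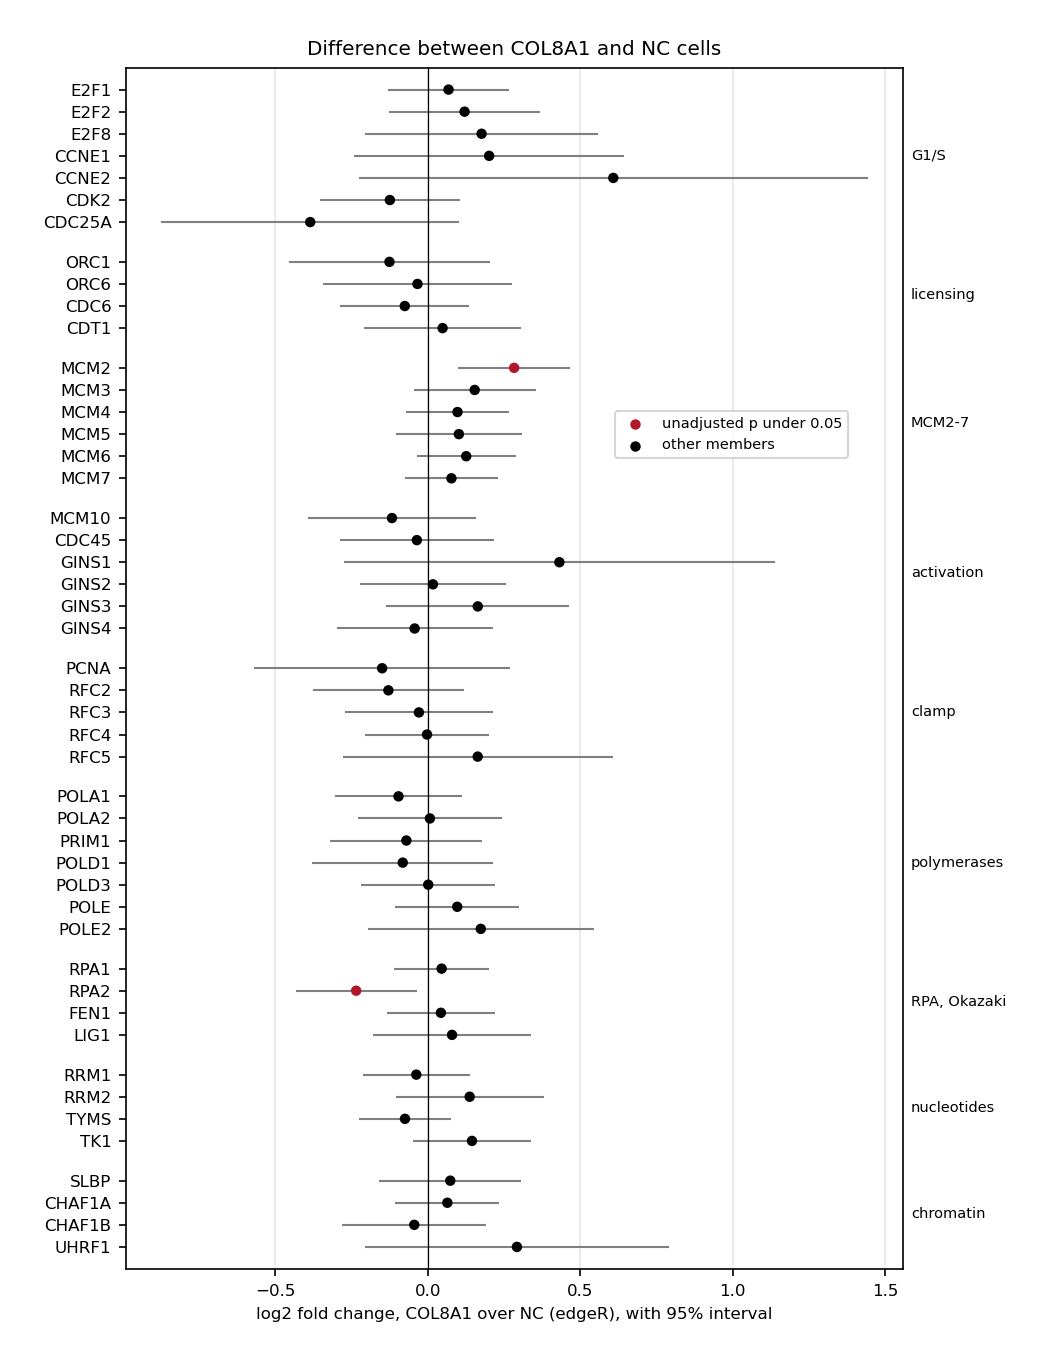
Log2 fold change of COL8A1 over NC for each of the 47 members (horizontal axis, edgeR; points) with its 95% interval (lines), grouped by role; red points have an unadjusted p under 0.05. Most points lie within 0.2 of zero, MCM2 is the only interval wholly above zero and RPA2 the only one wholly below it.

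All members were detected in every library. Counts ran from 257 for CCNE1 to 12928 for MCM7 in a single library, so counting error weighs most on CCNE1. The CPM of the 47 members summed to 5395, 5415, 5516 and 5708. The highest sum was thus in COL8A1 replicate 2 and the 2 NC sums lay below both COL8A1 sums. Within a group the 2 libraries differed by a median of 1.07-fold in NC and 1.05-fold in COL8A1 cells over the members, against 1.08-fold and 1.10-fold over all tested genes of at least 5 CPM. In 17 members (36.2%) both COL8A1 libraries were above both NC libraries, as in 18.9% of all genes tested, and in 7 (14.9%) both were below, as in 18.6% of all genes.

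**Figure D2:**
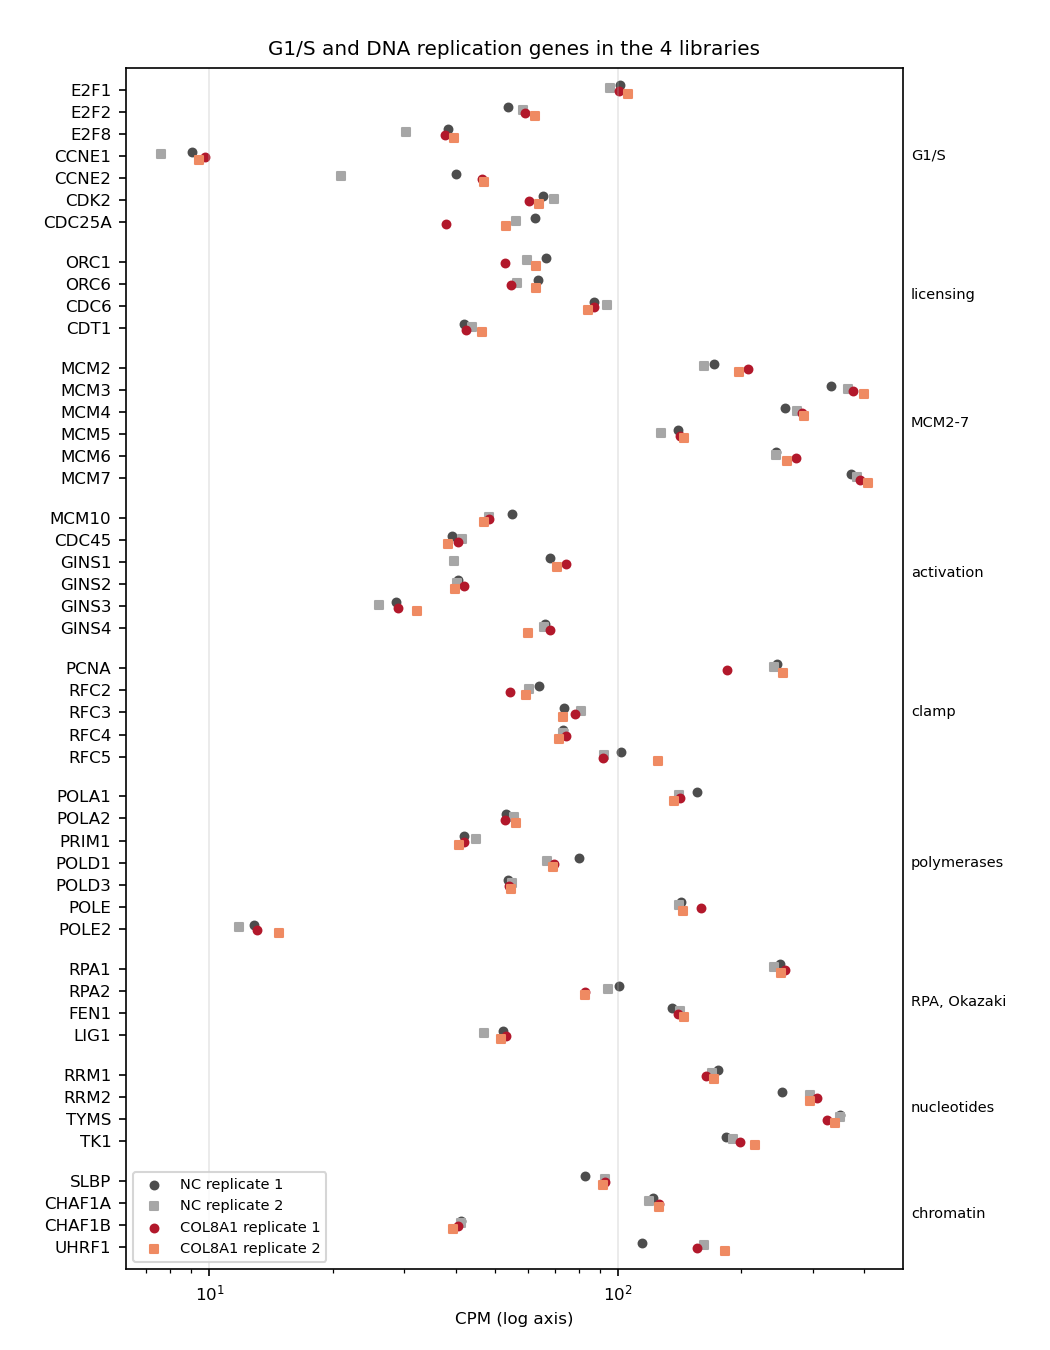
CPM of the 47 members (horizontal log axis) in NC replicates 1 and 2 (dark and light grey) and COL8A1 replicates 1 and 2 (red and orange), grouped by role. The 4 points of most genes lie close together; CCNE2 and GINS1 have NC replicate 2 far to the left, and CDC25A and PCNA have COL8A1 replicate 1 to the left.

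Among the G1/S regulators, 5 of 7 had a higher and 2 a lower mean in COL8A1 cells, and 0 passed the threshold. E2F1, the activating E2F that drives S-phase genes, was at 101 and 95.7 CPM in the NC libraries and 100.4 and 106 CPM in the COL8A1 libraries. Those groups overlapped, with an edgeR log2 fold change of 0.068 (95% interval −0.13 to 0.27, adjusted p = 0.893). E2F2, a second activator, was at 53.7 and 58.3 CPM in NC and 59.1 and 62.7 CPM with COL8A1, and E2F8, a repressor that limits E2F output, at 38.3, 30.3, 37.8 and 39.7 CPM. For E2F2 the groups did not overlap, while the interval of its log2 fold change (−0.13 to 0.37) included zero. CDK2, the kinase partner of cyclin E, was at 65.6 and 69.8 CPM in NC and 60.4 and 63.8 CPM with COL8A1, lower in both, with an interval of −0.35 to 0.11.

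CCNE2, a cyclin E gene, had the largest log2 fold change of the members, and it rested on 1 library. CCNE2 (ENSG00000175305; chr8:94879770-94896678 on the minus strand, GRCh38, GENCODE 29) had 1232, 709, 1473 and 1304 counts or 40.2, 21.0, 46.3 and 47.0 CPM. NC replicate 2 stood apart at the lower level, and NC replicate 1 was near the COL8A1 libraries. The means were 30.6 ± 13.5 CPM in NC and 46.7 ± 0.428 CPM with COL8A1 (SD, n = 2), with an edgeR log2 fold change of 0.61 (SE 0.317, adjusted p = 0.835). Without NC replicate 2 this was 0.21, and without NC replicate 1 it was 1.15. CCNE2 shares 1629 exon bases with INTS8 on the opposite strand, which had 1816, 1849, 1644 and 1529 counts, close to each other in the 2 NC libraries. CCNE1, the other cyclin E, was the least abundant member, at 9.07 and 7.62 CPM in NC and 9.75 and 9.43 CPM with COL8A1 (log2 fold change 0.20, interval −0.24 to 0.64).

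CDC25A, the phosphatase that activates CDK2, had the lowest log2 fold change of the members. It was at 62.6 and 56.3 CPM in the NC libraries and at 38.0 and 53.1 CPM in the COL8A1 libraries (chr3:48157146-48188402 on the minus strand). Both COL8A1 values were below both NC values, but COL8A1 replicate 1 was far lower than replicate 2, a 1.40-fold gap within the group. The edgeR log2 fold change was −0.39 (SE 0.186, interval −0.87 to 0.10, adjusted p = 0.835), and without COL8A1 replicate 1 it was −0.16.

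Origin licensing genes showed no difference beyond the spread between libraries, and in all 4 the groups overlapped. ORC1, the ATPase subunit of the origin recognition complex, was at 66.5 and 59.8 CPM in NC and 52.9 and 62.9 CPM with COL8A1 (edgeR log2 fold change −0.13, interval −0.45 to 0.20, adjusted p = 0.887). ORC6 followed the same order, highest in NC replicate 1 and lowest in COL8A1 replicate 1, at 63.8, 56.7, 54.8 and 62.9 CPM in the 4 libraries. CDC6, which helps ORC to load MCM, was at 87.0 and 93.9 CPM in NC and 87.3 and 84.5 CPM with COL8A1. CDT1, the MCM chaperone destroyed once S phase begins, was at 42.0, 43.9, 42.5 and 46.3 CPM, an interval of −0.21 to 0.31 on the log2 scale.

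The 6 subunits of the MCM2-7 helicase, which unwinds DNA at the fork, all had a higher mean in COL8A1 cells. In each of the 6 both COL8A1 libraries were above both NC libraries, by small margins, where 18.9% of all genes tested were. The 6 genes were read from the same libraries, so they are not 6 separate observations. MCM2 (ENSG00000073111; chr3:127598223-127622436 on the plus strand) was at 171 and 162 CPM in NC and 208 and 197 CPM with COL8A1, or 166 ± 6.55 and 203 ± 8.04 CPM (SD, n = 2). The gap between the groups was wider than the gaps within them, a 1.22-fold difference with an edgeR log2 fold change of 0.28 (SE 0.070, interval 0.099 to 0.47). Its unadjusted p of 0.0116 was the smallest of the members and ranked 298 among all 17030 genes, and its adjusted p of 0.653 missed the threshold.

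MCM3 was at 331 and 365 CPM in NC and 375 and 399 CPM with COL8A1, with an edgeR log2 fold change of 0.15 (SE 0.076, adjusted p = 0.835). MCM4 was at 256, 273, 282 and 284 CPM, and MCM5 at 140.1, 127, 142 and 145 CPM. For MCM5 the nearest values of the 2 groups, 140.1 in NC replicate 1 and 142 in COL8A1 replicate 1, almost touched. MCM6 was at 243 and 244 CPM in NC and 273 and 258 CPM with COL8A1, and MCM7, the most highly counted member, at 372, 384, 390.0 and 408 CPM. The log2 fold changes of MCM3 to MCM7 ran from 0.078 to 0.15, and the interval of each included zero. As a group the 6 had a median log2 fold change of 0.11. All 6 stayed higher in COL8A1 cells with each library left out in turn and under each other setting tried. With no overlap between the groups, leaving out a library could hardly change these signs, so this adds no support.

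MCM2 shares 1113 exon bases with an antisense gene (AC023593.1; 27, 32, 21 and 25 counts) and 45 with TPRA1 on the opposite strand (620, 630, 402 and 403 counts). Both were far below the 5247, 5455, 6620 and 5469 counts of MCM2. MCM7 shares 392 exon bases with AP4M1 on the opposite strand, at 421, 424, 459 and 290 counts.

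**Figure D3:**
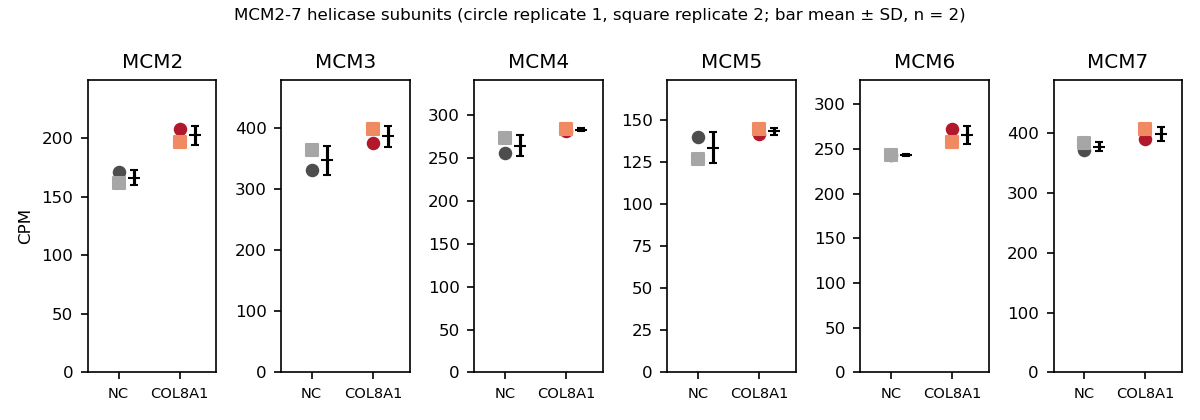
CPM (vertical axes, from 0) of the 6 MCM2-7 subunits in NC (grey) and COL8A1 (red and orange) libraries; circles are replicate 1, squares replicate 2, and bars give the mean ± SD of the 2 libraries. Each COL8A1 point is above both NC points, with the clearest gap in MCM2 and the narrowest in MCM5.

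The genes that turn the loaded helicase into the active CMG complex did not share this pattern, with 3 of 6 higher and 3 lower. GINS1, a subunit of the GINS tetramer, was at 68.2 and 39.6 CPM in NC and 74.7 and 70.7 CPM with COL8A1 (chr20:25407727-25452628 on the plus strand). As for CCNE2, NC replicate 2 stood apart, 1.72-fold below NC replicate 1, while NC replicate 1 was close to the COL8A1 libraries. The means were 53.9 ± 20.2 and 72.7 ± 2.81 CPM (SD, n = 2), with an edgeR log2 fold change of 0.43 (SE 0.269, adjusted p = 0.844) that became 0.089 without NC replicate 2. The partner subunits did not show that gap, with GINS2 at 40.5, 40.4, 41.8 and 40.0 CPM, GINS3 at 28.5, 26.0, 28.9 and 32.2 CPM and GINS4 at 66.3, 65.9, 68.1 and 60.2 CPM. CDC45, which bridges GINS and MCM, was at 39.3, 41.4, 40.5 and 38.3 CPM, and its groups overlapped. MCM10, which helps to start the helicase, was at 55.1 and 48.4 CPM in NC and 48.3 and 47.1 CPM with COL8A1, lower in COL8A1 cells by less than the spread within NC.

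Of the sliding clamp PCNA and its loader, RFC, 1 of 5 genes had a higher mean in COL8A1 cells. PCNA (ENSG00000132646; chr20:5114953-5126626 on the minus strand) was at 245 and 241 CPM in NC and 185 and 253 CPM with COL8A1. COL8A1 replicate 1 was the low library, and replicate 2 was above both NC libraries. The edgeR log2 fold change was −0.15 (SE 0.160, adjusted p = 0.89) and turned to 0.06 without COL8A1 replicate 1. RFC2 was at 64.1 and 60.4 CPM in NC and 54.5 and 59.4 CPM with COL8A1, lower in both, with an edgeR log2 fold change of −0.13 (SE 0.094, adjusted p = 0.856). RFC5 had its high value in 1 library, at 101, 92.1, 91.6 and 125 CPM in the 4 libraries, with COL8A1 replicate 2 apart from the rest. RFC3 and RFC4 had log2 fold changes of −0.029 and −0.0022, and their groups overlapped.

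The replicative polymerases and primase were split into 4 higher and 3 lower means, and their log2 fold changes had a median of 0.0017. POLA1, the catalytic subunit of polymerase alpha, was at 156 and 141 CPM in NC and 141 and 137 CPM with COL8A1 (edgeR log2 fold change −0.096, interval −0.30 to 0.11, adjusted p = 0.869). Its partner POLA2 was at 53.1, 55.5, 53.0 and 56.2 CPM and the primase subunit PRIM1 at 41.9, 45.0, 42.0 and 40.8 CPM. These ranges were narrow, but both genes share exons with a second counted gene on their strand. For POLA2 that gene (AP000944.2, 2012 shared bases) had 2, 0, 38 and 31 counts. For PRIM1 it (AC117378.1, 362 shared bases) had 44, 187, 0 and 0 counts, and with these added the log2 fold change of PRIM1 went from −0.07 to −0.18.

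POLD1, the catalytic subunit of the lagging-strand polymerase delta, was at 80.1 and 67.1 CPM in NC and 69.6 and 69.4 CPM with COL8A1. POLD3, an accessory subunit of the same enzyme, was at 53.6, 55.0, 54.1 and 54.7 CPM, the log2 fold change nearest to zero among the members (0.0017, interval −0.22 to 0.22). POLE, the catalytic subunit of the leading-strand polymerase epsilon, was at 143, 141, 159 and 144 CPM (edgeR log2 fold change 0.097, SE 0.077, adjusted p = 0.864). POLE2 was at 12.8, 11.8, 13.1 and 14.8 CPM. In POLE and POLE2 both COL8A1 libraries were above both NC libraries, with intervals that included zero.

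Among the single-strand binding and Okazaki fragment genes, RPA2 was the exception. RPA2 (ENSG00000117748; chr1:27891524-27914746 on the minus strand), the middle subunit of the RPA complex that coats unwound DNA, was at 100.3 and 94.5 CPM in NC and 82.8 and 82.7 CPM with COL8A1. Both COL8A1 values were below both NC values, and the 2 COL8A1 libraries were nearly equal. The means were 97.4 ± 4.13 and 82.8 ± 0.0726 CPM (SD, n = 2), with an edgeR log2 fold change of −0.23 (SE 0.075, interval −0.43 to −0.036), an unadjusted p of 0.0293 and an adjusted p of 0.763. It stayed between −0.28 and −0.19 with each library left out in turn. As the groups did not overlap, leaving out a library could hardly change the sign, so this adds no support. RPA1, the large subunit of the same complex, was at 249, 240.5, 255 and 250.1 CPM, slightly higher in both COL8A1 libraries (interval −0.11 to 0.20).

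FEN1, the nuclease that trims Okazaki fragments, was at 136 and 141 CPM in NC and 140.2 and 145 CPM with COL8A1 (edgeR log2 fold change 0.043, SE 0.067, adjusted p = 0.931). LIG1, the ligase that joins them, was at 52.2, 47.1, 53.3 and 51.7 CPM. The groups overlapped in both genes.

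Nucleotide supply genes went both ways by small amounts. TYMS, which makes thymidylate, was at 348 and 349 CPM in NC and 324 and 339 CPM with COL8A1, below in both (edgeR log2 fold change −0.075, SE 0.057, adjusted p = 0.861). TK1, the salvage kinase of thymidine, was at 184, 191, 198 and 216 CPM, above in both (edgeR log2 fold change 0.15, SE 0.073, adjusted p = 0.835). The 2 routes to thymidylate thus stood on opposite sides of zero, and the interval of each included zero (−0.23 to 0.076 for TYMS and −0.047 to 0.34 for TK1). RRM1 and RRM2, the subunits of ribonucleotide reductase, were at 175, 169, 164 and 172 and at 252, 294, 306 and 295 CPM. NC replicate 1 was the low library for RRM2, while RRM1 overlapped between the groups. TYMS shares 967 exon bases with ENOSF1 on the opposite strand, which had 16, 6, 124 and 10 counts.

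Of the histone supply, chromatin assembly and methylation genes, UHRF1, which guides maintenance methylation to the fork, varied most. It was at 115 and 162 CPM in NC and 156 and 183 CPM with COL8A1. The groups overlapped, with NC replicate 1 far below the other 3 libraries, and the edgeR log2 fold change was 0.29 (SE 0.189, adjusted p = 0.852). It went from 0.064 without NC replicate 1 to 0.56 without NC replicate 2. SLBP, which binds the stem-loop of histone mRNAs, was at 82.8, 92.9, 92.9 and 92.0 CPM, again with NC replicate 1 lowest (edgeR log2 fold change 0.074, SE 0.089, adjusted p = 0.902). CHAF1A and CHAF1B, subunits of chromatin assembly factor 1, were at 122, 119, 126 and 126 and at 41.3, 41.4, 40.6 and 39.5 CPM. Their groups did not overlap, CHAF1A being higher with COL8A1, as in 18.9% of all genes tested, and CHAF1B lower, as in 18.6%. The interval of each log2 fold change included zero (−0.11 to 0.24 for CHAF1A and −0.28 to 0.19 for CHAF1B).

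Of the 9 role groups, the library medians parted NC from COL8A1 in 2: both COL8A1 libraries were above both NC libraries in the MCM2-7 genes and below both in the clamp and loader genes. As single genes, 18.9% of all genes tested parted upward and 18.6% downward. That share was not computed for sets of genes, so the count of role groups is a description only. The median over genes of log2 CPM minus the mean of the 4 libraries was −0.081, −0.039, 0.04 and 0.069 for MCM2-7. The narrowest spread was that of the polymerases and primase, at −0.019, −0.025, −0.014 and −0.023. For the clamp and its loader it was 0.0052, 0.023, −0.13 and −0.0029, far lower in COL8A1 replicate 1 than in replicate 2. Licensing genes had 0.042, −0.0019, −0.077 and 0.072, with the 2 COL8A1 libraries at the 2 extremes. Over all 47 members it was −0.005, −0.0078, 0.0069 and 0.04, with both COL8A1 libraries above both NC libraries and the highest value in COL8A1 replicate 2. The neighbouring G1 cyclin and RB/E2F list, with 12 genes higher and 12 lower, parted in the same direction, at −0.010, −0.013, 0.020 and 0.025.

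**Figure D4:**
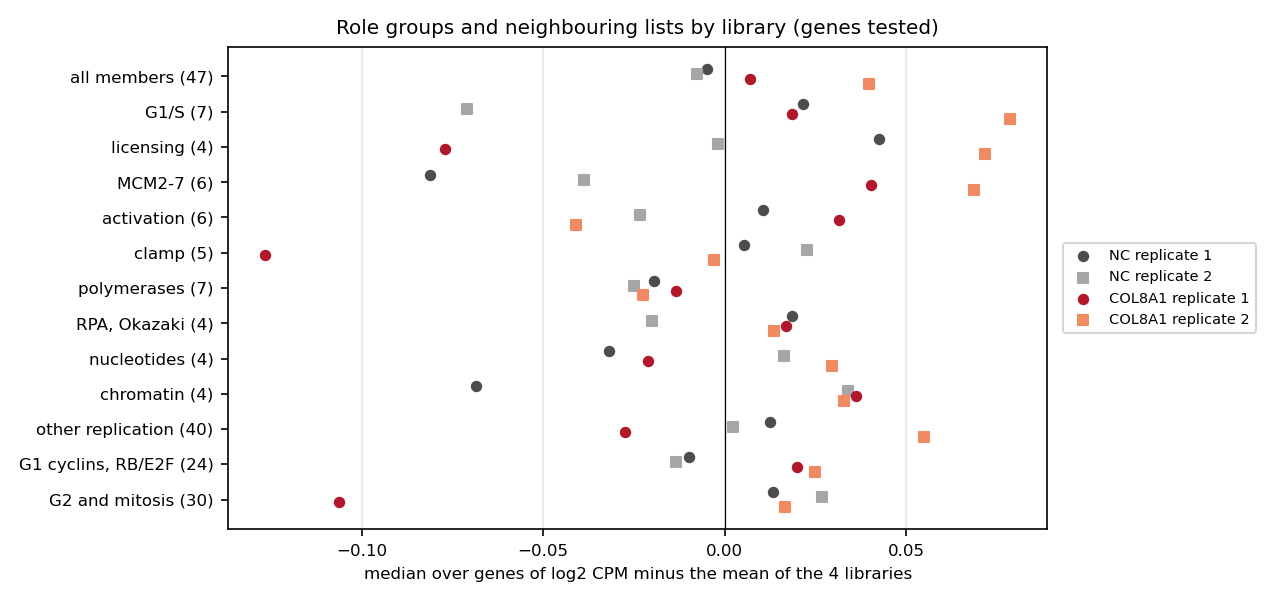
Median over genes of log2 CPM minus the mean of the 4 libraries (horizontal axis) for all members, the 9 role groups and 3 neighbouring lists, with the number of genes tested in brackets; each point is a library. Both COL8A1 points lie to the right of both NC points for all members, the MCM2-7 genes and the G1 cyclin and RB/E2F list. COL8A1 replicate 1 lies far to the left for the clamp genes and for G2 and mitosis genes.

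Levels can be set between genes only per length, here as CPM per kilobase of the longest principal GENCODE transcript, a mean over the 4 libraries. TYMS was highest at 205 (range over libraries 195 to 210.3), followed by PCNA at 169.9 (136 to 186), MCM7 at 131 (126 to 138), TK1 at 121 (113 to 133) and MCM3 at 115 (103 to 124). The ranges of TYMS and PCNA did not overlap, while those of each later pair of neighbours in this order did. At the low end stood CCNE1 at 4.39 (3.73 to 4.77), POLE2 at 7.40 (6.67 to 8.33) and CHAF1B at 9.08 (8.83 to 9.23), with no overlap between these 3. E2F1 was at 40.2, above E2F2 at 11.3 and E2F8 at 10.4. The 6 MCM subunits, which act in equal numbers in the hexamer, spanned 3.35-fold on this scale, from 39.2 for MCM5 to 131 for MCM7. Per length of all exons joined, the same 5 genes led, with PCNA first at 157, TYMS at 138, TK1 at 106, MCM3 at 101 and MCM7 at 88.5, and the MCM span was 5.34-fold, so the order within it depends on the length used.

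**Figure D5:**
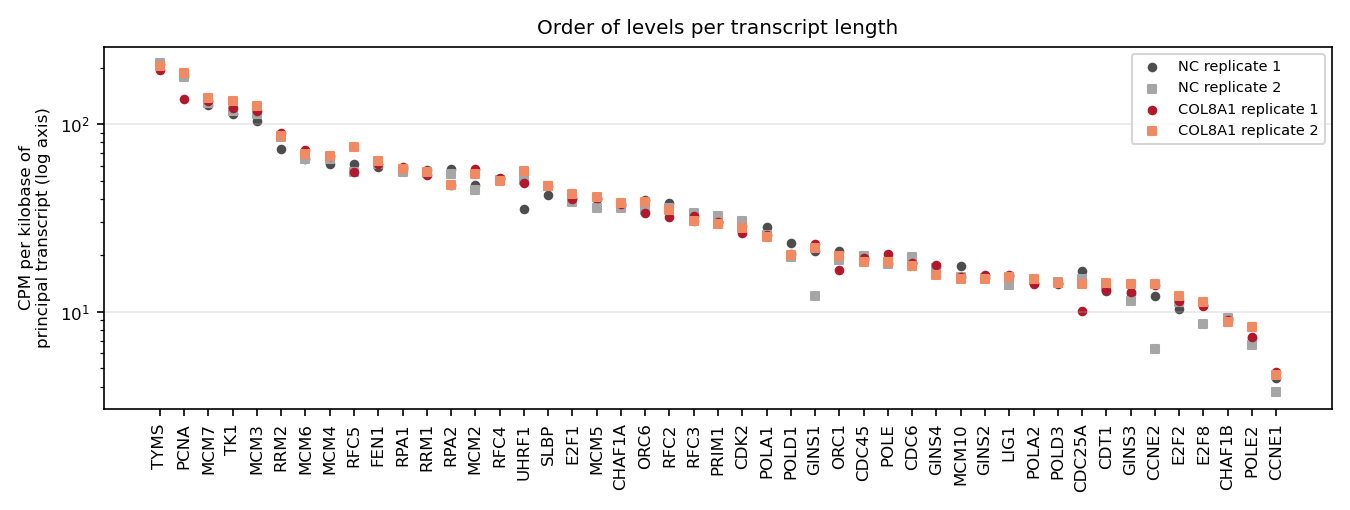
CPM per kilobase of principal transcript (vertical log axis) of the 47 members in the 4 libraries, ordered by their mean. Levels fall from TYMS and PCNA to POLE2 and CCNE1, and the 4 libraries lie close together beside the differences between genes.

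Other genes of the pathway were described by 3 further lists. Of 40 other replication genes, 17 had a higher and 23 a lower mean in COL8A1 cells, with a median log2 fold change of −0.017, and 0 passed in edgeR. RECQL4, a helicase that acts in replication initiation, was at 53.5 and 52.5 CPM in NC and 69.3 and 71.7 CPM with COL8A1 (edgeR log2 fold change 0.41, SE 0.082, adjusted p = 0.553), and was the 1 gene of the list that DESeq2 called (adjusted p = 0.0354). Its COL8A1 libraries were clearly above its NC libraries, with close replicates in both groups. POLE4, a small subunit of polymerase epsilon, was at 40.9, 45.8, 53.1 and 50.4 CPM, an interval of −0.017 to 0.53.

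Of 28 G1 cyclins, CDKs, inhibitors and RB/E2F genes, 24 could be tested, and 12 were higher and 12 lower with 0 past the edgeR threshold. E2F4, an E2F that acts mainly in repressor complexes, was at 47.2 and 53.3 CPM in NC and 65.8 and 66.0 CPM with COL8A1 (edgeR log2 fold change 0.39, SE 0.100, adjusted p = 0.662), and E2F7, the partner of E2F8 in repression, at 64.1, 60.9, 71.5 and 73.0 CPM (interval −0.0047 to 0.42). In both, the COL8A1 libraries were above the NC libraries. The 4 genes too low to be tested were CCND2, CDKN2B and CDKN2C, at 0 counts in every library, and CDKN2A, at 2 counts in COL8A1 replicate 1 and 0 in the other libraries. CDKN2A, CDKN2B and CDKN2C encode inhibitors of the cyclin D kinases upstream of E2F, and CDKN2A is known to be deleted in this line.

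G2 and mitosis genes, which peak later in the cycle, had 7 of 30 higher, 23 lower and a median log2 fold change of −0.058. In edgeR 0 passed. CDC25B was at 298 and 304 CPM in NC and 344 and 350.3 CPM with COL8A1 (edgeR adjusted p = 0.67) and AURKB, a mitotic kinase, at 64.4, 71.1, 58.4 and 55.0 CPM (edgeR adjusted p = 0.816). For this list the library medians were 0.013, 0.027, −0.11 and 0.016, lowest in COL8A1 replicate 1, the library in which CDC25A and PCNA were low. Whether the replication genes differ from this list between the vectors was not tested.

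Among members that have a promoter window, 15 of the 21 with E2F-type letters had a higher mean in COL8A1 cells, with a median log2 fold change of 0.078, and 8 of the 18 without them, with a median of −0.018. Log2 fold changes of the first set ran from −0.39 for CDC25A to 0.43 for GINS1, and of the second from −0.13 for RFC2 to 0.20 for CCNE1. The 2 ranges overlapped, and the difference was not tested. All 4 MCM2-7 genes that have a window are in the first set, so the split partly repeats their result. The 8 members without a window are in neither set, among them CCNE2, MCM4 and MCM5 (higher) and CDK2 and RPA2 (lower). The split was not among the planned descriptions, and it was not made over all tested genes.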

How the data were processed

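The authors deposited unnormalized counts of reads per gene for 4 libraries. Per the submitters' processing notes, the build was hg38 and the tools included HISAT2 2.2.1, Trim Galore 0.6.9 and featureCounts, for which version 0.3 is listed. Strand setting and annotation release: not given in the sources used here, so reads of genes that overlap on opposite strands cannot be told apart. A line with a protein domain record and no counts was left out.

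The members, role groups, lists and tests were chosen with earlier results of these data known. In R 4.3.3, edgeR 4.0.16 (filterByExpr, TMM, quasi-likelihood F-test, group as the only term, 2 residual and 2.64 prior degrees of freedom) was fitted to all genes, and p-values were adjusted by Benjamini and Hochberg over the 17030 genes tested, with a threshold of 0.05. All 47 members passed the low-count filter. CPM used TMM-scaled library sizes, and log2 CPM a prior count of 2. SE was taken from the fold change and the F statistic (absolute log2 value over the root of F), and 95% intervals use the degrees of freedom of the test. Positions, lengths and exon overlaps are from GENCODE 29 (GRCh38). Pseudogenes named after members had at most 3 counts.

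Adjusted p-values of single genes are given by a rule: in each of the 9 role groups the member with the smallest p and that with the highest level per exon length, members past a threshold in edgeR or DESeq2, members over 1.5-fold apart within a group, and the 2 smallest p-values of each further list. Other members are given as CPM, some with a fold change or interval chosen after the values were seen. Statements on single libraries, exon overlaps and library order were added after the values were seen.

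Alternatives were no low-count filter, 1 CPM in 2 libraries, DESeq2 size factors, library size alone, DESeq2 1.42.0, limma-voom (limma 3.58.1), a replicate block, counts summed over overlapping genes and each library left out. Sums restricted to overlaps of at least 300 exon bases and the principal transcript length were chosen after seeing the data. The fits were tested on simulated data with changes larger than that of any member, so that test does not show how well small differences are recovered. The 2 libraries of each group differed by far more than counting noise.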

Additional observations from a re-analysis of the deposited data

How the results depend on the processing

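Under every alternative run, 0 members passed the adjusted threshold, 27 to 30 of 47 had a higher mean in COL8A1 cells and all 6 MCM2-7 genes did. For the MCM2-7 genes this follows almost wholly from the lack of overlap between the groups. The number of genes past the threshold over the whole table, 2 in edgeR, was 17 without a low-count filter, 180 in DESeq2 and 1 with the replicate block, which changed no call among the members. The titles number the libraries 1 and 2 in each group without saying that a number marks a shared culture, and deviations of same-numbered libraries had a correlation of −0.030 across 11277 genes, so the numbers were not taken as pairs. DESeq2 called 1 of the other replication genes, where edgeR called 0. The median log2 fold change of the G1 cyclin and RB/E2F list, 0.012, was 0.0075 without a low-count filter. With each library left out in turn, the count over all genes ran from 0 to 3, members at an unadjusted p under 0.05 from 1 to 3, the members' median from 0.028 to 0.060, that of other replication genes from −0.054 to 0.054, of the G1 list from −0.017 to 0.017 and of G2 and mitosis genes from −0.13 to −0.010. The log2 fold change of PCNA ran from −0.40 to 0.060, of POLA2 from −0.040 to 0.050 and of SLBP from −0.0076 to 0.16; the cause was not tested. Summing counts over every overlapping gene on the strand gave PRIM1 −0.40 and FEN1 0.27, with the reads of NACA and FADS2 among those added. Leaving out a library leaves a lone sample in its group, assumed to vary like the other group. The lowest count of a member in a library was 257 (CCNE1), and precision is limited by the 2 libraries in each group.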

Other observations

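The low level of CCNE2 and GINS1 in NC replicate 2 was also seen in genes of the further lists, named here after their values were seen. MYC, a transcription factor that promotes S-phase entry, was at 41.0 and 11.5 CPM in the NC libraries and 38.3 and 40.0 CPM with COL8A1 (edgeR log2 fold change 0.58, SE 0.590, adjusted p = 0.889). GMNN, which encodes geminin, the inhibitor of CDT1, was at 75.5, 46.3, 73.1 and 79.9 CPM (edgeR log2 fold change 0.33, SE 0.247, adjusted p = 0.859). In both genes NC replicate 2 was the lowest library and the other 3 were closer to each other. The proliferation markers MKI67, at 1034, 1028, 1024 and 1032 CPM, and TOP2A, the topoisomerase of dividing cells, at 1488, 1448, 1472 and 1447 CPM, did not share the gap. Other genes of dividing cells varied between the NC libraries in both directions. FOXM1 was at 386, 260, 277 and 287 CPM, lowest in NC replicate 2, but there NC replicate 1 was the library that stood apart. NC replicate 2 was the highest library for BIRC5, at 87.3, 146, 83.7 and 99.1 CPM. CCND1, the cyclin D1 gene, was at 839.5, 707, 618 and 809 CPM and RB1 at 145, 143, 111 and 139 CPM, each lowest in COL8A1 replicate 1, as CDC25A and PCNA were.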
